A study of Mus musculus with 4 samples.

Results

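The genes described here are 10 members of the S100 family of calcium-binding proteins, S100a1, S100a3, S100a4, S100a6, S100a8, S100a9, S100a10, S100a11, S100a13 and S100a16, taken by symbol from the 56832 genes counted in each library. RNA sequencing had been done on 4 libraries of cultured microglia, the resident macrophages of the brain, from female C57BL/6 mice. The cells came from primary glia culture, were detached with trypsin and sorted by flow cytometry, and form 1 group with no treatment and no age given in the labels. They stand as the endogenous reference for progenitor-derived myeloid cells in the series, which were not analysed here, so the comparisons below are between genes and between libraries. Cells grown in culture are not microglia taken directly from brain, and nothing in the labels says whether the 4 libraries came from separate cultures, so every SD and p-value covers the spread between libraries only, which may be technical.

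S100 proteins are small proteins that carry a pair of EF-hands, the loops that hold calcium. Most pair up as dimers, change shape when calcium binds, and then grip target proteins such as annexins, myosin or kinases, while several are also released and act on receptors such as Tlr4 and RAGE (the product of Ager). S100a8 and S100a9 together form calprotectin, an abundant cytosolic protein of neutrophils that is also made by inflammatory monocytes and is widely used as a sign of infiltrating myeloid cells. S100a4 and S100a6 are typically high in blood monocytes, but are also made by fibroblasts and other cells. In the account below these 4 genes are called the granulocyte and monocyte members and the remaining 6 the other listed members; the division was made here from textbook knowledge.

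Libraries held between 23212183 and 28469813 gene counts. The label was checked against marker genes. Of 8 microglial markers 7 reached 1 CPM (counts scaled so that every library has the same total) in each library, among them Fcrls and Csf1r at 5346 and 2830 TPM. The median of the 8 was 1846 TPM ± 63.4 (SD, n = 4, as for every ± below; TPM is counts per gene length, scaled to a common total, and is used wherever genes are set side by side). Siglech, at 0.680 TPM ± 0.486, was the exception, and Sall1 was the next lowest at 9.26 ± 0.662. Transcripts of Y-linked Ddx3y were present in every library at 30.0 to 41.5 CPM, beside Xist at 253 to 341 CPM, although the labels give the sex as female. Replicate 1 stood apart in the immediate-early gene Egr1, at 231 CPM against 39.9 to 72.4 CPM elsewhere, and replicate 3 had the smallest mitochondrial share, 0.900% against 1.07% to 1.24%.

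The 2 members with the most RNA, S100a1 and S100a13, lie next to each other and are read in opposite directions. Their promoters are shown first because they share sequence. In the RefSeq table of promoters (build GRCm38.p6, from 250 bases before to 50 bases after each start) the window of S100a1 is chr3:90514281-90514580 on the minus strand and that of S100a13 is chr3:90514185-90514484 on the plus strand. The windows have 204 bases in common and the annotated starts are 105 bases apart. Each is printed 5′ to 3′ on its own strand, with the shared bases in capitals.
S100a1: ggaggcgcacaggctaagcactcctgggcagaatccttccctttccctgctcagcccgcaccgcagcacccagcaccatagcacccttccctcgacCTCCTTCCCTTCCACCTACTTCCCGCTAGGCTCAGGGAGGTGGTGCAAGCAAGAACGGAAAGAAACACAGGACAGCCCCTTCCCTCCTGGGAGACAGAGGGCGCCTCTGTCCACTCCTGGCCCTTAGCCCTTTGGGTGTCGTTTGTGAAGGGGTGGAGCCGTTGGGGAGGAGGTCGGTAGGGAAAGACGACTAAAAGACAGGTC
S100a13: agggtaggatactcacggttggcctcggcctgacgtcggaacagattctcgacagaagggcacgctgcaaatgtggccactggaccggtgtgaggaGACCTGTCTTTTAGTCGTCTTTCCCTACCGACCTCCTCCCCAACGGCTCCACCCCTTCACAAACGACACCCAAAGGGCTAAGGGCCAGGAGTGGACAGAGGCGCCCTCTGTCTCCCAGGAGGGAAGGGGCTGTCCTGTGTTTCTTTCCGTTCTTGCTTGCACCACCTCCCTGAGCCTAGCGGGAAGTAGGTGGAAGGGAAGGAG
Of the 27025 genes in that table, 11.9% have a window that shares bases with the window of a gene on the opposite strand.

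The next pair, S100a8 (chr3:90668821-90669120, plus strand) and S100a9 (chr3:90695672-90695971, minus strand), is shown as the contrast, since these calprotectin genes were at or near 0. Capitals mark matches to TATAAA (the TATA box), GAGGAAG (a core of the site of PU.1, the myeloid factor encoded by Spi1), TTNNGNAA (a C/EBP site) and TGANTCA (an AP-1 site), each searched on both strands, and no marked matches overlap.
S100a8: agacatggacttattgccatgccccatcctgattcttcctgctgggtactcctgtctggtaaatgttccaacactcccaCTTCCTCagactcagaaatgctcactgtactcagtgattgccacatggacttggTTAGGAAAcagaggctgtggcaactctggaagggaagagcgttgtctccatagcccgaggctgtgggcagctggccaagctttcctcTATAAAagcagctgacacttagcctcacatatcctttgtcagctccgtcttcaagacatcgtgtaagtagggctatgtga
S100a9: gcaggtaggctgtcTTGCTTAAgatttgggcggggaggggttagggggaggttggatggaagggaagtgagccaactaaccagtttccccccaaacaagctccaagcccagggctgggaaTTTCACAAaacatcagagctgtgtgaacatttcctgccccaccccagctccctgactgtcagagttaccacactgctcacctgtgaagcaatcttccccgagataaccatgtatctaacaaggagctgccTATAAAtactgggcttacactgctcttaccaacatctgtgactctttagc
S100a8 held 1 TATAAA match, 1 PU.1 match and 1 C/EBP match, and S100a9 held 1 TATAAA match and 2 C/EBP matches. Matches were counted at any position in a window. The TATAAA of S100a8 lay before the annotated start, whereas that of S100a9 began at about the start itself. Neither the S100a1 nor the S100a13 window held any of these motifs. Over all 32851 windows the shares were 13.6% for TATAAA, 13.6% for GAGGAAG, 40.7% for TTNNGNAA and 7.81% for TGANTCA. Windows were found for 9 of the 10 members; TATAAA occurred in those of S100a4, S100a8, S100a9 and 1 of 4 windows of S100a3. GAGGAAG occurred in S100a4 as well as S100a8, TTNNGNAA in S100a3 as well as S100a8 and S100a9, and TGANTCA in S100a11 and S100a16, so that members with ample RNA held some of these motifs too. The windows also differed in CpG dinucleotides. S100a1 had 11, S100a13 had 14 and S100a11 had 15, beside a median of 7 over all windows, whereas S100a4 had 2, S100a6 had 6, S100a8 had 4, S100a9 had 2 and neither window of S100a16 had more than 4. These 3 of 9 members had 10 or more CpGs, as 43.5% of all windows did. These matches are descriptions of the sequence, and binding was not measured.

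Of the 10 members, 7 reached 1 CPM in each of the 4 libraries, as 51.8% of protein-coding genes did. S100a1, known from heart muscle and neurons as a regulator of calcium release, was highest. Its levels were 277, 311, 310 and 297 TPM in replicates 1 to 4, a mean of 299 ± 15.9 from 1478 to 1741 reads per library, and 97.8% of protein-coding genes lay below it. The 4 libraries were close together, with a coefficient of variation of CPM of 6.11%. S100a13, which helps release fibroblast growth factor 1 and interleukin 1 alpha from cells by a route that bypasses the secretory pathway, was at 121, 119, 155 and 114 TPM, a mean of 127 ± 19.0. Replicate 3 was above the rest. S100a1 was the higher of this divergent pair in every library, by a ratio of 2.38 ± 0.297 in TPM, from 2.00 in replicate 3 to 2.62 in replicate 2.

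S100a11, a partner of annexin A1 in membrane trafficking and repair, was at 84.7, 94.2, 112 and 80.1 TPM, a mean of 92.9 ± 14.3, again with replicate 3 highest. S100a10, also called p11, binds annexin A2 and brings plasminogen to the cell surface; its loops no longer bind calcium. It was at 18.0, 19.3, 32.2 and 16.5 TPM, a mean of 21.5 ± 7.22, so that replicate 3 lay well apart from the other libraries, which were close together. S100a16, a broadly expressed member, was at 9.14, 14.3, 16.5 and 10.7 TPM, a mean of 12.6 ± 3.34, with replicates 2 and 3 above replicates 1 and 4. S100a3, known from the hair shaft, had 0 reads throughout, a count under which a library could still hold 0.105 to 0.129 CPM (3 counts, counting error only).

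The granulocyte and monocyte members split into a pair at or near 0 and a pair well above it. S100a8 had 1, 4, 0 and 3 reads in replicates 1 to 4. Its 8 reads in all correspond to 0.0783 CPM, with an exact 95% Poisson interval of 0.0338 to 0.154 CPM for counting error only. S100a9 had 0 reads in every library, which allows up to 0.836 TPM in the library with the highest limit. S100a4, which binds non-muscle myosin and is also known as fibroblast-specific protein, was instead at 53.6, 64.7, 90.2 and 52.3 TPM, a mean of 65.2 ± 17.6, above 88.4% of protein-coding genes. Replicate 3 was highest and replicates 1 and 4 were nearly equal. S100a6, or calcyclin, was at 25.6, 29.8, 27.0 and 23.5 TPM, a mean of 26.5 ± 2.65, with no library far from the others.

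The level of S100a4 depends on how its locus was counted. In GENCODE M21 another annotated gene, Gm42674, covers 51.7% of its exon bases on the same strand, and Gm42674 was listed with 0 reads in all 4 files. If reads in the shared bases were set aside as ambiguous, S100a4 is understated. Dividing by the exon bases that no other gene covers gave 134 TPM ± 36.2 for S100a4 and 126 ± 18.9 for S100a13, the reverse of their order in the main values. That division keeps every counted read of S100a4, so 134 TPM is too high if any of them reached into the shared bases. No protocol used here gives the counting mode. The names of the deposited files hold the words strict and no, which may stand for the strict intersection mode of HTSeq and for counting without strand. In that mode a read wholly inside the shared bases would be set aside as ambiguous. Of the other members only S100a3 overlapped another gene's exons, over 4.61% of its bases.

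**Figure D1:**
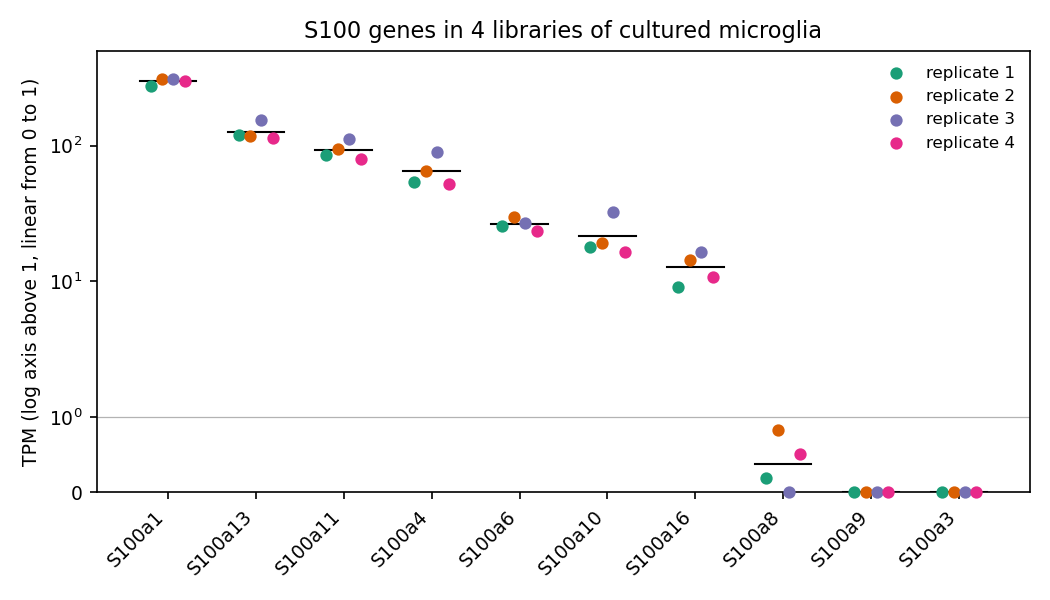
Level of each of the 10 S100 genes in TPM (vertical axis, logarithmic above 1 and linear from 0 to 1), with 1 point per library and a black line at the mean of 4. S100a1 was highest at 277 to 311 TPM, 7 genes lay above 9 TPM in every library, and S100a8, S100a9 and S100a3 lay below 1 TPM.

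Ordered by mean TPM the members ran S100a1, S100a13, S100a11, S100a4, S100a6, S100a10, S100a16, S100a8, and then S100a9 and S100a3 at 0. Neighbours whose libraries overlapped were S100a11 and S100a4, S100a6 and S100a10, and the 3 members near 0; every other neighbouring pair was separated in all 4 libraries. S100a11 was nevertheless above S100a4 within each of the 4 libraries, while S100a6 was above S100a10 in 3 of 4. Dividing by the longest transcript in place of all merged exons left this order unchanged among the 8 members with reads. The 17 S100 genes with an annotated length summed to 589, 654, 744 and 596 TPM. S100a1 supplied 46.5% ± 3.46 of that sum and S100a13 19.6% ± 1.26, so the divergent pair made up 66.1% ± 2.77, from 62.5% in replicate 3 to 68.9% in replicate 4. S100a11 supplied 14.3% ± 0.684, S100a4 9.97% ± 1.51, S100a6 4.12% ± 0.414, S100a10 3.27% ± 0.710 and S100a16 1.93% ± 0.319.

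The contrast between the granulocyte and monocyte members and the other listed members was taken within each library as the difference of the group medians of log2(TPM + 1). The other listed members were higher in all 4 libraries, by 2.84, 2.55, 3.53 and 2.63, a mean of 2.89 ± 0.448. Medians were 13.4 TPM ± 1.40 for the granulocyte and monocyte members and 57.2 TPM ± 10.7 for the others, beside 17.9 TPM over all genes tested for differences between libraries. The tested genes had been filtered by their counts, whereas both groups include members at or near 0, so these medians are not of like sets. S100a4 and S100a6, which were tested, lay above 17.9 TPM, at 65.2 and 26.5 TPM. The difference of 2.89 between the groups was carried by S100a8 and S100a9. Against S100a4 and S100a6 alone it was 0.10 ± 0.132, with 1 library below 0, and it was 1.15 ± 0.0428 when S100a3, at 0, was also left out. Against S100a8 and S100a9 alone it was 5.28. No test was applied, because the members had been chosen with results of these data known.

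Neutrophil markers were at or near 0, and monocyte markers were at 0 or low. Of 11 neutrophil markers 8 had 0 reads in every library, Elane, Mpo, Camp, Ngp, Ly6g, Retnlg, Cxcr2 and Fcnb, and the whole list summed to 0.0431 to 0.281 CPM per library; Mmp8 was highest, at 0.135 TPM ± 0.0886, then Ltf at 0.0619 ± 0.0979 and Prtn3 at 0.0208 ± 0.0416. Of 7 monocyte markers 4 had 0 reads, among them Ly6c2, Plac8 and Chil3, and the list summed to 2.92 to 4.27 CPM. The chemokine receptor Ccr2, at 0.997 TPM ± 0.272, was its highest member and the 1 of 7 that reached 1 CPM in every library (1.51 to 2.52 CPM, 199 reads in all), followed by F13a1 at 0.284 ± 0.111 and Vcan at 0.179 ± 0.0833. The part of monocytes in the levels of S100a4 and S100a6 was not tested. Lymphocyte markers, another possible source of S100a4, summed to at most 0.296 CPM, with 4 of 6 at 0, among them Cd3g, Nkg7 and Trac. Of 7 markers of border and tissue macrophages, Cd163, Lyve1 and Clec4f had 0 reads and Timd4 was at 0.184 TPM ± 0.228, while Ms4a7, Pf4 and Mrc1 were at 527 ± 37.0, 309 ± 14.4 and 295 ± 30.9. In bulk RNA fewer cells of a type and less RNA per cell cannot be told apart.

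The listed transcription factors with a part in granulocyte and monocyte programmes were mostly present, which does not show that such a programme was active. Of 7 listed, 5 reached 1 CPM in each library, including Spi1 at 610 TPM ± 16.7, Cebpa at 447 ± 17.7 and Irf8 at 305 ± 8.77. The exceptions were the granulocyte regulators Cebpe, with 0 reads, and Gfi1, at 0.0278 ± 0.0557. The phagocyte NADPH oxidase, to which calprotectin delivers arachidonic acid in neutrophils, had all 6 listed subunit genes above 100 TPM, with a median of 448 ± 27.0. Cyba was at 1746 ± 161, Ncf1 at 702 ± 32.4, Cybb at 661 ± 51.3 and Ncf4 at 164 ± 8.25.

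Beyond the 10 members, 8 further S100 genes were listed in the files, and 5 of them, S100a2, S100a5, S100a7l2, S100g and S100z, had 0 reads in every library. S100a14 had 1 read in all and S100a7a had 6. S100b, the classical astrocyte member of the family, had 4, 15, 6 and 21 reads, a mean of 1.02 TPM ± 0.649. The level of S100b was low although the 8 astrocyte markers summed to 284 to 485 CPM and each reached 1 CPM in every library, with Clu at 210 TPM ± 44.9, Gfap at 50.3 ± 14.2 and Aqp4 at 18.5 ± 1.51. The lowest astrocyte markers were Gja1 at 4.67 ± 1.19 and Slc1a2 at 2.17 ± 0.553.

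On chromosome 3, S100 genes with and without appreciable RNA are interspersed, some of each in runs. In the order of the RefSeq annotation, S100a1 and S100a13 (299 and 127 TPM) are followed by S100a14 (0.0171 TPM), S100a16 (12.6), S100a3 and S100a2 (both 0), S100a4 (65.2), S100a5 (0), S100a6 (26.5), S100a7a (0.158), S100a8 (0.381) and S100a9 (0), with no other protein-coding gene between them. S100a7l2, at 0 reads, comes next after 1 other protein-coding gene. S100a11 (92.9) and S100a10 (21.5), which are neighbours of each other, lie 54 protein-coding genes further on. S100a4 thus sits between S100a2 and S100a5, which had no reads.

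**Figure D2:**
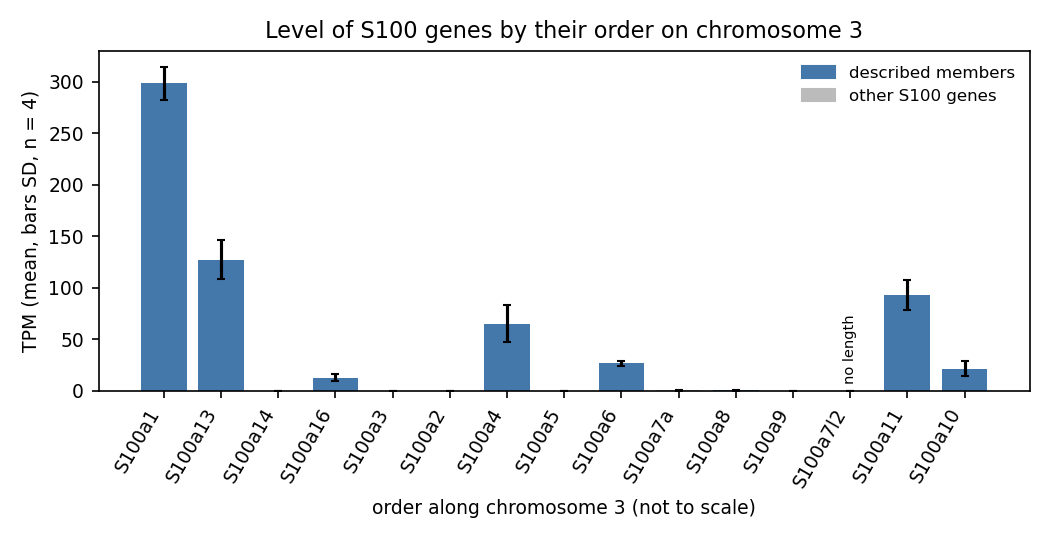
Mean TPM of 15 S100 genes (bars; error bars are the SD of 4 libraries) in their order along chromosome 3, not to scale, with described members in blue and other S100 genes in grey. Expressed genes such as S100a4 (65.2 TPM) and S100a6 (26.5 TPM) stood beside genes at 0, and S100a7l2 had 0 reads and no annotated length.

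Each gene was tested for a spread over the libraries beyond that of genes of like abundance (edgeR deviance test, Benjamini-Hochberg adjusted over all 12879 genes tested). Of the 7 members tested 0 passed, where 1.11% of all tested genes did, and DESeq2 marked 0 members as dispersion outliers. At an unadjusted p under 0.05 there were 2 members, S100a10 and S100a4, where 6.79% of all tested genes were. S100a10 reached 11.5 CPM in replicate 3 and lay between 5.94 and 6.91 CPM elsewhere, so that replicate 3 was 1.81 times the mean of the rest. Its adjusted p from edgeR was 0.45, with a range of 0.018 to 1.0 over the alternatives. S100a4 reached 15.6 CPM in replicate 3 and 9.06 to 11.2 CPM elsewhere, 1.59 times the mean of the rest. Its adjusted p from edgeR was 0.51, with a range of 0.075 to 1.0 over the alternatives. Without replicate 3 the adjusted p of both was 1.0. S100a1 varied least, with an SD of log2 CPM of 0.08, then S100a6 at 0.14, beside a median of 0.13 over all tested genes; S100a10 had 0.42, S100a16 0.38 and S100a4 0.35.

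Of the 7 tested members 5 had their highest CPM in replicate 3, namely S100a4, S100a10, S100a11, S100a13 and S100a16, and 5 had their lowest in replicate 4. Among all tested genes 30.2% were highest in replicate 3 and 21.3% lowest in replicate 4. After TMM scaling these shares were 24.02% and 21.7%, and the counts among members were again 5 and 5. S100a1 and S100a6 were highest in replicate 2. The summed CPM of the 10 members was 123, 140, 159 and 127 in replicates 1 to 4.

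**Figure D3:**
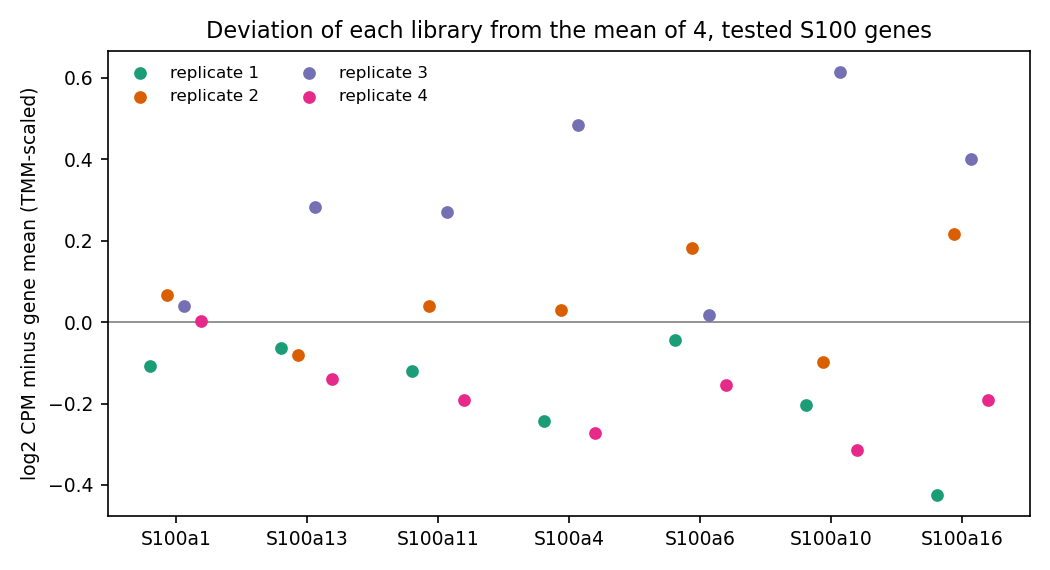
Deviation of each library from the gene's mean over 4 libraries, in TMM-scaled log2 CPM (vertical axis), for the 7 tested members, with 1 point per library. Replicate 3 was highest for 5 members, by up to 0.61 for S100a10, while all libraries of S100a1 lay within 0.11 of the mean.

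Some astrocyte markers and 1 mural cell marker differed between these libraries. The astrocyte list summed to 284, 446, 485 and 391 CPM in replicates 1 to 4. Of its 8 tested genes 3 passed the spread test (Gfap, Slc1a3 and Clu), where 1.11% of all tested genes did. All 8 were lowest in replicate 1, as were 35.3% of all tested genes (30.7% after TMM scaling). The fibroblast and mural list summed to 112, 138, 144 and 107 CPM, with 1 of 8 tested genes past the test, Acta2 of smooth muscle actin (42.8, 57.2, 73.5 and 45.7 CPM; adjusted p by edgeR 0.0041). Its highest members were Acta2 at 84.5 TPM ± 21.2, Tagln at 28.7 ± 6.85 and Cspg4, of pericytes and oligodendrocyte progenitors, at 8.80 ± 1.161. The fibroblast collagen genes went another way: Col1a1, at 2.57 TPM ± 1.11, and Col3a1, at 1.59 ± 0.486, both had their lowest CPM in replicate 3. The lowest of that list were Rgs5 at 0.147 ± 0.155 and Pdgfra at 0.0855 ± 0.0562. Endothelial markers summed to 13.9 to 23.4 CPM, led by Kdr at 6.28 TPM ± 1.55 with Tek at 0 reads. Oligodendrocyte lineage markers summed to 106 to 118 CPM, led by Mbp at 43.9 TPM ± 2.11 with Mog at 0 reads. In each of these lists 0 of 2 tested genes passed the spread test by edgeR, and 0 were DESeq2 dispersion outliers. Kdr was the 1 with an unadjusted p under 0.05, where 6.79% of all tested genes were. Of the microglial markers P2ry12 was the 1 past the spread test, and it was lowest in replicate 3, at 164 CPM against 185 to 249 CPM. The part of these cells in the S100 levels was not tested.

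Among 8552 genes at a mean of 10 CPM or more, the 5 whose centred log2 CPM over the 4 libraries lay closest to that of S100a4 were Flnc, Lrp2, Gpc4, Acta2 and Fads3. Root mean square differences were 0.04 for Flnc, which encodes a filamin of muscle, 0.04 for the endocytic receptor Lrp2, 0.05 for the glypican Gpc4, 0.06 for Acta2 and 0.07 for the desaturase-like gene Fads3. All 5 were highest in replicate 3 and lowest in replicate 1, whereas S100a4 was lowest in replicate 4 (9.06 CPM, beside 9.11 CPM in replicate 1). Tagln, another smooth muscle gene, ranked 8, S100a11 ranked 28 and S100a13 ranked 73, while the microglial markers Csf1r and Cx3cr1 ranked 4806 and 6089. Markers of several cell types lay between these ranks. They included the endothelial marker Kdr at 97, the astrocyte markers Clu at 193 and Aqp4 at 2958, and Cspg4 of the mural list at 1060. Of the border and tissue macrophage markers Pf4 ranked 1584, whereas Ms4a7 and Mrc1 ranked 6605 and 7848. Exons of other genes cover 67.9% of the exon bases of Tagln. With 4 libraries such a likeness is a description only.

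Partners of the S100 proteins were then set beside them. All 8 annexin genes listed reached 1 CPM in every library, with a median of 89.0 TPM ± 2.65, and 0 of 8 passed the spread test by edgeR (0 at an unadjusted p under 0.05, and 0 as DESeq2 dispersion outliers). Anxa5, the phosphatidylserine binder, was highest at 886 ± 27.1, followed by Anxa3 at 287 ± 15.9 and Anxa2 at 113 ± 10.1; Anxa11 at 53.4 ± 2.701 and Anxa1 at 28.01 ± 3.25 were lowest. The 2 best known pairs were unequal in opposite directions. Anxa2 was above its partner S100a10 in every library, by a mean ratio of 5.56 in TPM that ran from 3.92 in replicate 3 to 6.62 in replicate 4, whereas Anxa1 was below S100a11, at a ratio of 0.310 ± 0.0760.

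Of 10 intracellular targets all were detected, with a median of 66.3 TPM ± 4.23. Myh9, the non-muscle myosin heavy chain that S100a4 binds, was at 463 ± 20.8, the chaperone adaptor Stip1 at 194 ± 8.51 and the scaffold Iqgap1 at 188 ± 7.69, while Myh10 at 15.4 ± 2.93 and Ahnak at 14.5 ± 3.26 were lowest. Ahnak, the large scaffold bound by the S100a10 and annexin A2 complex, was the 1 target past the spread test. Among all tested genes 1.11% passed. Ahnak had CPM values of 63.1, 90.9, 109 and 77.6 over replicates 1 to 4 (adjusted p by edgeR 0.0040), highest in replicate 3 as S100a10 was. Cacybp, which takes its name from calcyclin, was above S100a6 by a ratio of 1.90 ± 0.439.

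The receptors of released S100 proteins were uneven. Cd14 was at 1610 TPM ± 51.8, basigin Bsg at 624 ± 26.1 and Cd36 at 69.1 ± 4.77, and Tlr4, the calprotectin receptor, was at 44.0 ± 7.47. The Tlr4 cofactor Ly96 was at 23.1 ± 4.27. Ager, which encodes RAGE, was the 1 of 7 not at 1 CPM in all libraries, at 0.820 ± 0.335. None of the 6 receptors tested passed the spread test by edgeR, and 0 were DESeq2 dispersion outliers. Tlr4 was the 1 with an unadjusted p under 0.05, where 6.79% of all tested genes were. In the plasminogen system, which S100a10 serves at the cell surface, the activator Plau was at 363 ± 23.9, its receptor Plaur at 27.2 ± 3.97 and the plasminogen receptor Plgrkt at 11.8 ± 1.45. Plg itself and Serpinb2 had 0 reads. Of the genes tied to release through S100a13, Fgf1 was at 4.41 ± 0.837, Il1a at 0.800 ± 0.278, Sphk1 at 0.292 ± 0.165 and Syt1 at 0.0478 ± 0.0305, so only Fgf1 of these 4 was at 1 CPM or more in every library.

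The other EF-hand genes listed here had a higher median than the S100 members. All 12 listed were detected, 7 of them at 100 TPM or more, with a median of 255 TPM ± 10.1 beside 23.99 TPM for the median of the 10 S100 members. The S100 median includes 3 members not at 1 CPM, whereas the 12 are a selection that holds no undetected gene. The signalling adaptor Efhd2 was at 1335 ± 83.0, the actin bundler Lcp1 at 830 ± 35.6 and calmodulin Calm2 at 479 ± 29.1, and the lowest were Sri at 47.1 ± 1.39 and Ncs1 at 7.74 ± 0.9998. Aif1, the EF-hand gene behind the microglial stain Iba1, was above S100a1 in every library, by a ratio of 1.58 ± 0.101 in TPM.

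**Figure D4:**
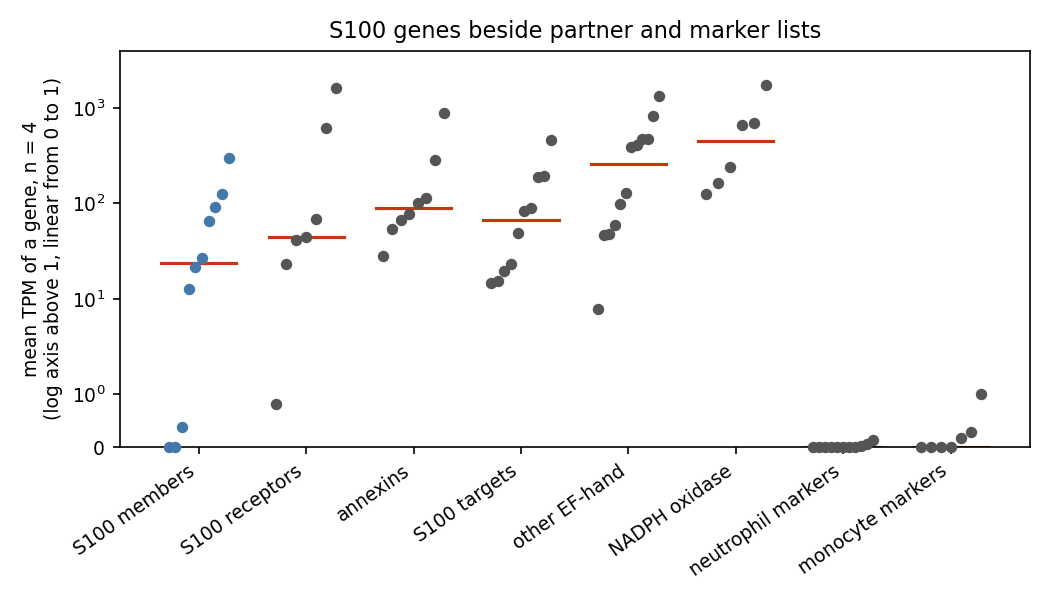
Mean TPM over 4 libraries of each gene (points) in the S100 members and 7 lists, on an axis that is logarithmic above 1 and linear from 0 to 1, with the list median as a red line. The S100 members, with a median of 23.99 TPM, ran from 0 to 299 TPM, while the neutrophil and monocyte markers stayed below 1 TPM.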

How the data were processed

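The deposited values are raw read counts by gene symbol, 1 file for each of the 4 libraries, with 56832 genes and 5 summary lines; STAR 2.7.10a, SAMtools 1.16.1, HTSeq 0.11.2 and mm39 (GRCm39) are named in the submitters' processing notes. The protocols used here do not give the annotation, counting mode or strand setting, although words in the deposited files' names may stand for strict intersection and unstranded counting, so that reads of overlapping or antisense genes may not have been told apart. Summary lines, 11.8% ± 0.159 of all reads, were left out of library sizes. There were 0 columns of no sample. No headers gave depths beyond these counts; total gene counts were 27012285, 23436924, 23212183 and 28469813 in replicates 1 to 4, and 3 counts, the limit a count of 0 allows, equal 0.105 to 0.129 CPM.

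CPM used the summed gene counts. TPM used merged exon lengths from GENCODE M21 (GRCm38, lengths only), matched by symbol for 89.1% of symbols with 98.8% of the counts; 1 listed gene, S100a7l2, had no length. Promoters were matched by symbol in the RefSeq table (GRCm38.p6, another build than the authors' files), for their sequence only. The spread test used edgeR 4.0.16 (R 4.3.3) with 1 mean per gene, TMM, filterByExpr, trended dispersion and a chi-square with 3 degrees of freedom at an adjusted p of 0.05. On simulated data for these 4 libraries (12728 genes), 97 of 100 genes changed by a fold of 2 in 1 library and 40 of 100 changed by a fold of 1.5 were called, with 4 calls among 12528 unchanged genes. The changed genes were drawn only from those at a mean of 10 CPM or more. S100a10 and S100a16, at means of 7.68 and 6.03 CPM, lay below that, so these shares do not cover them. S100a6, S100a4 and S100a11, at means of 10.7, 11.2 and 14.0 CPM, lay not far above it. The shares were not split by abundance, so they may not hold for these members either. DESeq2 1.42.0 served as an alternative. Lists and members were chosen with earlier results of these data known. Named were all S100 genes, the 3 highest and 2 lowest genes of each list, genes past the spread test or at 0 reads (some taken by this rule are given only in counts or are not reported here), and the 5 genes most like the most variable member at a mean of 10 CPM or more. S100a2, Gm42674, Xist, Ddx3y, Egr1 and some further list genes were named after their values were seen.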

Additional observations from a re-analysis of the deposited data

Results flagged for a closer look

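Values were examined for a library whose gap to its nearest neighbour took a share of the whole range above Dixon's 95% critical value for 4 samples. They were the CPM of 118 genes, namely the S100 genes, the genes of the lists, the 5 genes most like S100a4, Egr1, Xist and Ddx3y, each where at least 2 libraries had reads, since a lone library with reads has a gap equal to the range, and 3 summary values of the S100 genes. Chance alone flags about 1 in 20, and 4 of 121 values were flagged. S100a13 reached 32.8 CPM in replicate 3 and lay between 24.1 and 25.1 CPM in the rest, the 1 of the 8 members with reads that was flagged. Myh9 was lowest in replicate 4, at 1663 CPM against 1787 to 1811 CPM, and Lcp1 was highest in replicate 1, at 2439 CPM against 2285 to 2287 CPM. Egr1 was highest in replicate 1, at 231 CPM against 39.9 to 72.4 CPM.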

How the results depend on the processing

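No paired analysis was possible because the samples form 1 group. The count of 7 detected members stayed between 6 and 7 with floors of 5 or 0.5 CPM and with any library left out. The difference of 2.89 between the other listed members and the granulocyte and monocyte members kept its sign under each alternative given next. It was 1.70 on CPM without gene length, 3.83 with a pseudocount of 0.1, 1.53 with a pseudocount of 10, 1.15 when genes under 1 CPM in every library were dropped, 2.18 with means over list members and 5.28 with S100a4 and S100a6 left out. Leaving out 1 library gave 2.67 to 3.003. Each of these, except the drop of genes under 1 CPM, kept S100a8 and S100a9, at or near 0, in the group. Against S100a4 and S100a6 alone the difference was 0.10 ± 0.132, and it was -0.03 in replicate 2. With a common dispersion in edgeR 1 member passed the spread test, S100a10; the other alternatives gave 0. Of all genes, 143 passed, 532 with a common dispersion, 69 as DESeq2 dispersion outliers and 47 to 118 with 1 library left out, 47 without replicate 1 and 52 without replicate 3. With the longest transcript as length, which rescales every library total, the mean TPM was 232 for S100a1, 96.1 for S100a13, 70.3 for S100a11, 35.04 for S100a6 and 28.8 for S100a10. Over exon bases that no other gene covers, an alternative chosen after seeing the data, S100a4 was at 134. Depth limits the members near 0, where a library with no reads allows up to 3.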
